A study of Mus musculus with 6 samples.

Results

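The 10 genes described here encode the 6 actins of the mouse (Acta1, Acta2, Actb, Actc1, Actg1 and Actg2) and 4 proteins of the smooth muscle contractile apparatus (Tagln, Cnn1, Myh11 and Lmod1). They were taken by symbol, whatever their values, from 38087 gene IDs, and all 10 were found. HL-1 cells, an immortalised line derived from mouse atrial muscle, had received 100 nM of siRNA directed at Circ-INSR, a circular RNA, or a negative control siRNA with a scrambled sequence, for which the labels do not make clear whether the same concentration was used. Libraries of the first group are called treated here. The labels call this group a knockdown of that circular RNA and give no other treatment, time or clone. Each group had 3 libraries made from poly(A)-selected RNA, and nothing in the labels says that they came from separate cultures. P-values therefore measure the spread between these libraries, which may be technical.

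Actin is the subunit of the thin filament. Acta1 and Actc1 encode the sarcomeric forms of skeletal and cardiac muscle, Acta2 and Actg2 the smooth muscle forms, and Actb and Actg1 the cytoplasmic forms found in nearly all cells. Acta2 is also active in the embryonic heart and in myofibroblasts. Many of these genes are bound by serum response factor (SRF) at a short sequence named the CArG box. SRF works with cofactors of the myocardin family, whose members MRTF-A and MRTF-B are held in the cytoplasm by monomeric actin, so that the actin pool feeds back on actin transcription.

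The promoter table (RefSeq, GRCm38.p6) held 6 of the 10 genes, namely Acta1, Acta2, Actc1, Actg1, Cnn1 and Lmod1. The 250 bases before each start were searched on both strands for the CArG box and for its form with exactly 1 of the 6 middle letters changed to G or C. The second form was added after the promoters were seen. Matches are shown because these actins share them. Capitals mark the match, each line runs 5′ to 3′ on the strand of the gene, and all 4 genes lie on the minus strand.
Actc1, chr2:114052903-114052932: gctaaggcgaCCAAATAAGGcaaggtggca
Actc1, chr2:114052943-114052972: gcccttggctCCAAGAATGGcctcagcggt
Actc1, chr2:114052994-114053023: ccctccccttCCTTACATGGtctgggagcc
Actc1, chr2:114053031-114053060: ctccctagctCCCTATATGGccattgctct
Acta2, chr19:34255388-34255417: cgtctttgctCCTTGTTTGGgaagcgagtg
Acta2, chr19:34255438-34255467: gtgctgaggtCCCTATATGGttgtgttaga
Acta1, chr8:123894829-123894858: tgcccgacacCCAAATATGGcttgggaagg
Acta1, chr8:123894910-123894939: ccagtcctctCCTTCTTTGGtcagtgcagg
Acta1, chr8:123894961-123894990: gggatactctCCATATACGGcctggtccgg
Actg1, chr11:120348566-120348595: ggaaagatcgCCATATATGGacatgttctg

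The unaltered CArG box was present in Acta1, Actc1 and Actg1, and in 1.47% of all 32851 promoters in the table. Either form was present in 4 of the 6 listed promoters and in 8.59% of all. The same 10 letters, CCCTATATGG, stood in both Acta2 and Actc1. In Acta2 both matches had 1 substitution, and they lay 84 and 34 bases before the RefSeq start, within the first exon of transcript Acta2-201 of GENCODE release M21. The letters CATTCC, the MCAT element bound by TEAD factors, were found in Acta1, Acta2 and Lmod1 and in 12.6% of all promoters. No match was found in Cnn1 for the CArG forms or CATTCC, which says only that these letters are not in this window.

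**Figure D1:**
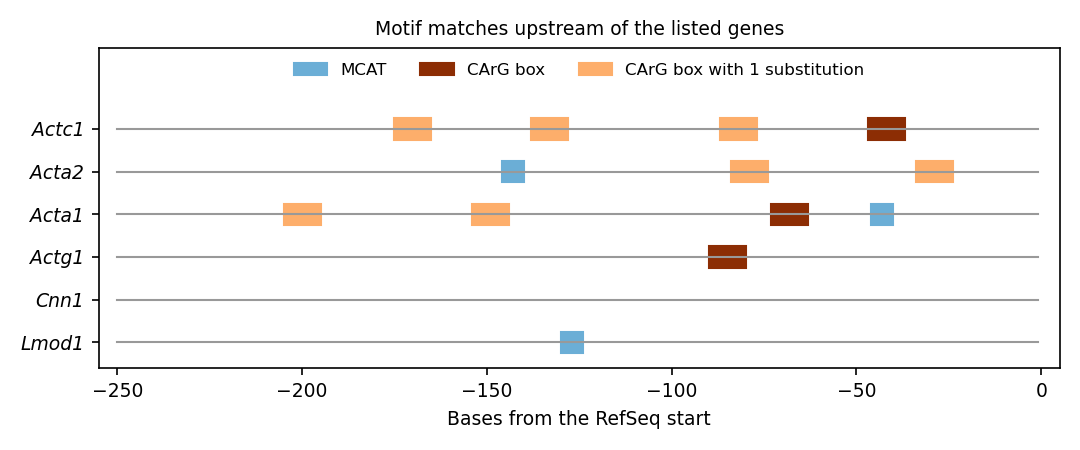
Position of matches to the CArG box, to its form with 1 substitution and to the MCAT element in the 250 bases before the RefSeq start of 6 listed genes, in bases from that start. Actc1 has 4 matches to the CArG forms, Acta1 has 3, Acta2 has 2 and Actg1 has 1.

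Levels are CPM, a gene's reads relative to all reads of its library, corrected with TMM factors for composition. Fold changes come from edgeR's quasi-likelihood test over 16666 genes with Benjamini-Hochberg adjustment. Total counts ran from 60024750 to 77037474 and were higher in each treated library than in any control library. With all libraries thinned to the lowest total, 9 listed genes were still called higher. Across all genes tested 28.5% were called higher and 28.5% lower, 57.0% in all, so a call by itself was common. Insr, the host gene of the circular RNA, stood at 129.0, 127.6 and 103.8 CPM in control libraries and at 89.2 CPM in each treated library. It was called lower, at a log2 fold change of -0.43 (SE 0.07; edgeR adjusted p = 0.000393). Whether this fall in Insr had a part in the other changes was not tested. Gene counts of poly(A)-selected RNA do not separate the circular RNA from the linear one, so these values do not check the knockdown. Of 12 cardiomyocyte markers all 12 could be tested, with Myh6 at 1564 ± 131 CPM in control libraries (SD, n = 3). Atrial markers differed in level there, and those given here were picked with their values known. The atrial light chain genes Myl7 and Myl4 stood at 1419 ± 66.6 and 297.9 ± 14.8 CPM. Nppa and Sln were low, at 16.6 ± 0.357 and 0.908 ± 0.115 CPM.

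All 9 listed genes with enough counts for the test rose after Circ-INSR siRNA. Their log2 fold changes ran from 0.24 to 1.04 with a median of 0.54, against a median of -0.0045 over all genes tested. Actg2 was too low to test. For each of the 10 genes the lowest treated library lay above the highest control library. Among all genes tested that held for 32.0%, and 63.3% had groups apart in either direction. Together the 10 genes took 0.888 ± 0.0239% of all reads in control and 1.32 ± 0.0215% in treated libraries (SD, n = 3 each). In bulk RNA, more cells of a kind and more RNA per cell cannot be told apart.

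**Figure D2:**
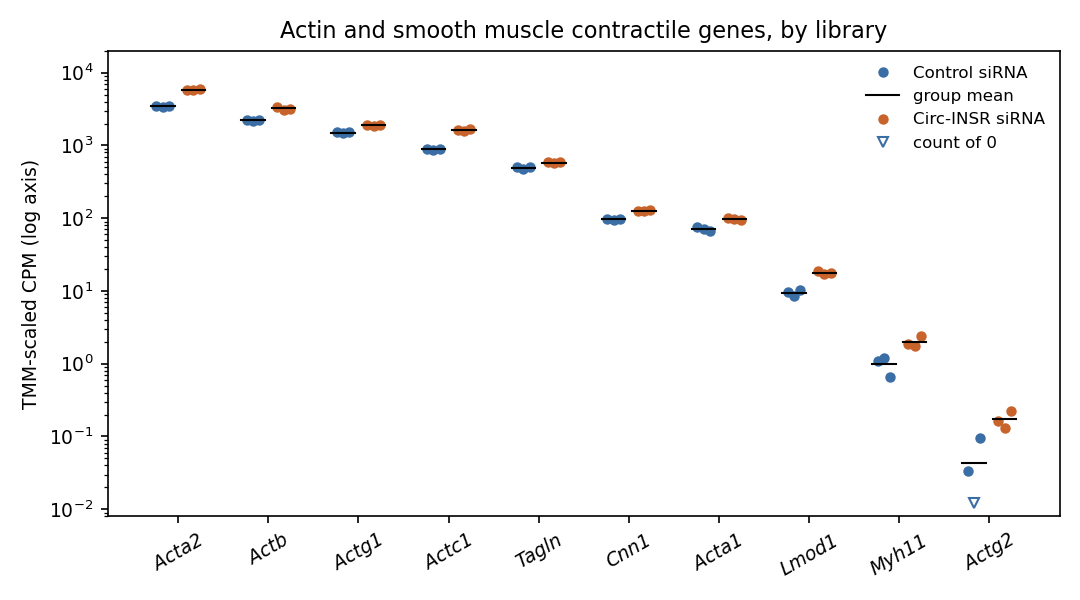
TMM-scaled CPM on a log axis for the 10 listed genes, 1 point per library, with control siRNA in blue, Circ-INSR siRNA in orange and a black bar at each group mean. The orange points lie above the blue points for every gene, from Acta2 at the top to Actg2, where the open triangle marks a count of 0.

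Acta2, the smooth muscle alpha actin (ENSMUSG00000035783, mm10 chromosome 19, 34241090 to 34255590, minus strand), was the most abundant listed gene. Control libraries held 3491, 3420 and 3515 CPM, and treated libraries 5708, 5733 and 5937 CPM. The groups were far apart, and the spread within each was small. The log2 fold change was 0.74 (SE 0.03; edgeR adjusted p = 7.45e-09), a fold of 1.67. Divided by exonic length, Acta2 stood at 1583 ± 22.6 CPM per kb in control and 2638 ± 57.3 in treated libraries (SD, n = 3 each). On that scale it ranked 3 among 36308 genes in control libraries and 1 in treated libraries. These cells are labelled as a cardiac line, and yet their most abundant actin mRNA was the smooth muscle form.

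Actc1, the cardiac alpha actin of the sarcomere (ENSMUSG00000068614, chromosome 2, 114047282 to 114053548, minus strand), showed the largest log2 fold change of the actins that were tested. Its control values were 895.8, 873.0 and 893.4 CPM, and those after Circ-INSR siRNA were 1620, 1597 and 1659 CPM. The log2 fold change was 0.87 (SE 0.04; edgeR adjusted p = 5.04e-09), and 4.42% of the genes tested rose by more. Acta1, the skeletal alpha actin (ENSMUSG00000031972, chromosome 8, 123891769 to 123894751, minus strand), was far lower, at 75.1, 71.2 and 67.2 CPM in control and 100.8, 97.5 and 94.9 CPM in treated libraries. It rose by 0.46 (SE 0.05; edgeR adjusted p = 1.17e-05).

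Actb, the cytoplasmic beta actin (ENSMUSG00000029580, chromosome 5, 142903115 to 142906754, minus strand), had 2256, 2148 and 2249 CPM in control libraries. After Circ-INSR siRNA it had 3372, 3112 and 3214 CPM, and the log2 fold change was 0.54 (SE 0.04; edgeR adjusted p = 3.19e-07). Actg1, the cytoplasmic gamma actin (ENSMUSG00000062825, chromosome 11, 120345690 to 120348542, minus strand), moved least among the actins. Its control values were 1508, 1460 and 1519 CPM, its treated values 1930, 1844 and 1905 CPM, and its log2 fold change 0.34 (SE 0.04; edgeR adjusted p = 7.08e-06). Both cytoplasmic genes kept their groups apart in every library.

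Actg2, the gamma actin of visceral smooth muscle (ENSMUSG00000059430, chromosome 6, 83512905 to 83536265, minus strand), was barely detected. Control libraries had 2, 0 and 6 reads and treated libraries 11, 10 and 16, so the highest library reached 0.223 CPM. A count of 0 in control replicate 2 allows up to 3 counts, or 0.0475 CPM, by counting error only, if each count is a separate fragment. If both mates of a pair were counted, it allows more. The gene did not pass the filter on low counts and has no fold change here. Of both smooth muscle actins, then, these cells carried large amounts of Acta2 mRNA and almost none of Actg2.

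Actin coding sequences are alike, which bears on whether reads were given to the right gene. Between pairs of the 6 genes 81.5% (Acta2 and Actg1) to 88.6% (Actb and Actg1) of aligned coding bases were identical. Even so, exact words of 50 bases were rarely shared between them. Words found in any other gene made up 0% for Actc1 and Actg2, 0.326% for Acta2, 2.02% for Acta1 and 9.12% for Actb. At 100 bases the share was 0% for Acta1, Acta2, Actc1 and Actg2.

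Actg1 differed in this respect, since 37.4% of its 50-base words recurred in 23 other genes. Most of these words stood in Gm12715, and the next most in Gm8399 and Actg-ps1. The pseudogene Gm12715 carried 604.7 ± 23.0 CPM in control and 738.4 ± 19.2 CPM in treated libraries (SD, n = 3 each). Its counts were 40.4% and 39.0% of those of Actg1 in these groups, and its log2 fold change was 0.29 (SE 0.04; edgeR adjusted p = 9.92e-05). How such reads were assigned is not given in the sources used here, so the level of Actg1 is uncertain. With Gm12715, Gm8399 and Actg-ps1 added, the sum went from 2143 ± 53.5 to 2690 ± 62.8 CPM, a log2 ratio of means of 0.33. The direction and size of the change in Actg1 were thus nearly the same with these copies included.

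The 6 actin genes were then set side by side per kb of exonic length. Their summed level was 3601, 3494 and 3608 CPM per kb in control and 5651, 5517 and 5707 in treated libraries, a ratio of means of 1.58. The groups did not overlap, and the exact two-sided permutation p was 0.1, the smallest that 3 against 3 libraries allow. In control libraries the order was Acta2, Actb, Actg1, Actc1, Acta1 and Actg2. Actg1 and Actc1 overlapped there, at 562.6 ± 11.8 and 548.5 ± 7.72 CPM per kb (SD, n = 3 each). After Circ-INSR siRNA this pair stood in the opposite order without overlap, with Actc1 at 1005 ± 19.4 and Actg1 at 712.2 ± 16.5 CPM per kb. This order rests on leaving out the Actg1 copies. With the 3 copies added over the length of Actg1, a calculation chosen after the values were seen, Actg1 stood above Actc1 in control libraries, at 806.3 ± 20.1 CPM per kb. In treated libraries it was then at 1012 ± 23.6 CPM per kb and overlapped Actc1.

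The muscle genes Acta1, Acta2, Actc1 and Actg2 made up 60.9%, 61.3% and 60.9% of the summed actin level in control libraries. In treated libraries they made up 64.9%, 66.4% and 66.4%, a difference of 4.86 percentage points, or 5.42 with the Actg1 copies added. Acta2 went from 44.4 ± 0.215% to 46.9 ± 0.780% and Actc1 from 15.4 ± 0.0681% to 17.9 ± 0.125% (SD, n = 3 each). The share of Actg1 was lower, at 12.7 ± 0.161% against 15.8 ± 0.0633%, as was that of Actb, at 21.4 ± 0.713% against 23.2 ± 0.226%. Acta1 was lower as a share, at 1.13 ± 0.0425% against 1.299 ± 0.0769%, although its CPM rose. Groups did not overlap for these 5 genes or for the muscle share. Over the 7 shares compared, the exact two-sided permutation p was 0.1 for each of these 6, with 0.117 after adjustment, and 0.2 for Actg2.

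**Figure D3:**
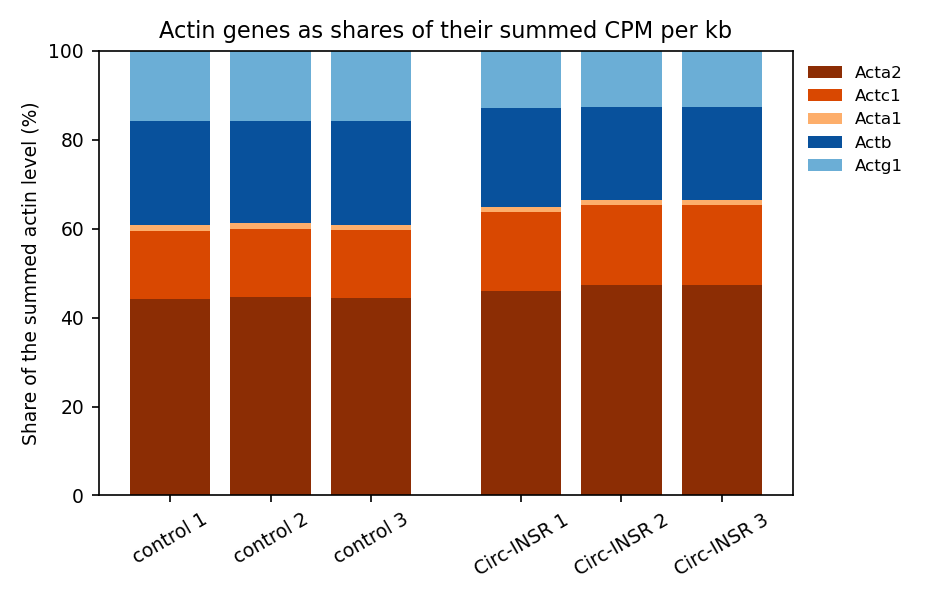
Share of each actin gene in the summed CPM per kb of exonic length, in percent, 1 bar per library with control siRNA at the left and Circ-INSR siRNA at the right. Actg2, at most 0.00251%, is too small to draw. The blue part, Actb with Actg1, takes 38.7% to 39.1% in control libraries and 33.6% to 35.1% in treated libraries.

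The genes of smooth muscle contraction fell into a pair that was abundant and a pair that was not. Tagln, which encodes transgelin or SM22 alpha, an actin-bundling protein (ENSMUSG00000032085, chromosome 9, 45929619 to 45936058, minus strand), was the most abundant of the 4. It had 497.7, 476.7 and 500.6 CPM in control and 590.8, 566.9 and 587.5 CPM in treated libraries. Its log2 fold change, 0.24 (SE 0.04; edgeR adjusted p = 0.000253), was the smallest among the listed genes tested. Of its 50-base words, 58.3% recur in 2 other genes, nearly all of them in exons of the antisense gene Gm48529. That gene is not among the gene IDs counted. The libraries were made with a directional kit, but the strand setting of the counts is not given in the sources used here. Reads of Gm48529 may therefore have been counted for Tagln, which was not tested.

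Cnn1, encoding the smooth muscle calponin that binds actin and restrains myosin (ENSMUSG00000001349, chromosome 9, 22099216 to 22109630, plus strand), had a log2 fold change of 0.40 (SE 0.04; edgeR adjusted p = 8.91e-06). Its values were 96.9, 94.0 and 97.5 CPM in control and 125.7, 124.3 and 131.4 CPM in treated libraries. Per kb, Cnn1 lay next to Acta1 in both groups without overlap, at 35.1 ± 0.696 against 46.3 ± 2.59 CPM per kb in control libraries (SD, n = 3 each).

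Lmod1, the smooth muscle leiomodin that nucleates actin filaments (ENSMUSG00000048096, chromosome 1, 135324807 to 135368065, plus strand), had 9.59, 8.54 and 10.2 CPM in control libraries. After Circ-INSR siRNA the values were 18.98, 17.2 and 17.5 CPM, and the log2 fold change was 0.92 (SE 0.08; edgeR adjusted p = 1.14e-06). Myh11, the smooth muscle myosin heavy chain and the most specific marker of mature smooth muscle among the listed genes (ENSMUSG00000018830, chromosome 16, 14194535 to 14291372, minus strand), was low among the genes tested. It had 65, 76 and 41 reads in control libraries and 127, 134 and 171 in treated libraries. These are 0.977 ± 0.288 and 2.01 ± 0.326 CPM (SD, n = 3 each). The log2 fold change of 1.04 (SE 0.22; edgeR adjusted p = 0.00143) was the highest and the least precise of the 9.

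Relatives of these 4 genes did not all share their direction. They were chosen as relatives after their values were seen. Tagln2, a transgelin of many cell types, fell from 256.8 ± 9.29 to 198.5 ± 3.42 CPM (SD, n = 3 each; log2 fold change -0.37, SE 0.04; edgeR adjusted p = 1.72e-05). The leiomodins of striated muscle also fell, Lmod2 by 0.88 (SE 0.06; edgeR adjusted p = 2.10e-07) and Lmod3 by 0.51 (SE 0.07; edgeR adjusted p = 6.74e-05), where Lmod1 rose. Both other calponin genes rose, Cnn2 by 0.44 (SE 0.04) and Cnn3 by 0.26 (SE 0.04). The non-muscle myosin genes Myh9 and Myh10 did not pass the test, with log2 fold changes of -0.02 (SE 0.09) and 0.15 (SE 0.09). Control replicate 3 was the lowest library for both, at 483.3 and 408.5 CPM. This was not particular to them, since it was also the lowest for Mrtfb, Myocd, Flna, Ryr2 and Ttn. For other genes, such as Pln and Dstn, it was the highest control library. These genes were picked with their values known, and the cause was not tested. For Myh9 the groups overlapped only through control replicate 3. Its other control values, 644.1 and 601.1 CPM, lay above the treated values of 564.8, 580.5 and 563.6 CPM.

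**Figure D4:**
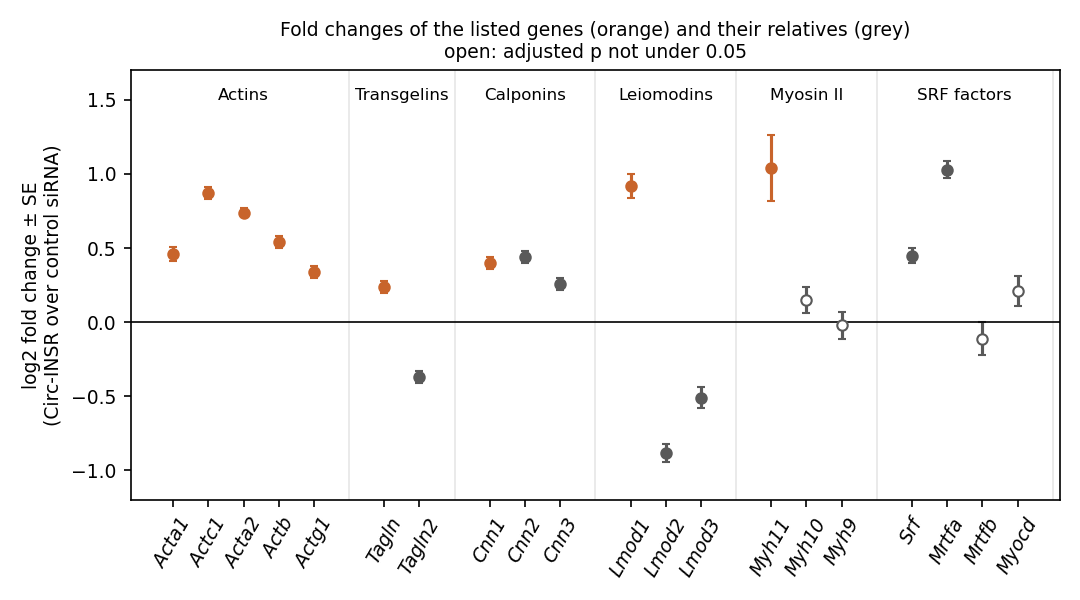
Log2 fold change (Circ-INSR siRNA over control siRNA) with its SE for the 9 listed genes tested (orange), for their relatives and for SRF and its main cofactors (grey). Open points did not pass the test. All orange points lie between 0.24 and 1.04, while Tagln2, Lmod2 and Lmod3 lie below 0.

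SRF and genes that act with it were mostly higher. Of 12 listed, 11 could be tested, 8 of them rose and 3 did not pass. Over all genes tested 28.5% were called higher and 28.5% lower. Neither this list nor those below were tested against these shares. Srf itself went from 211.2 ± 9.78 to 287.6 ± 9.09 CPM (SD, n = 3 each; log2 fold change 0.45, SE 0.05; edgeR adjusted p = 8.01e-06). Mrtfa, the actin-sensing cofactor, went from 41.4 ± 3.87 to 84.5 ± 1.61 CPM (log2 fold change 1.03, SE 0.06; edgeR adjusted p = 9.22e-08). Its relative Mrtfb was at 89.9 ± 14.6 and 83.3 ± 1.82 CPM (log2 fold change -0.11, SE 0.11; edgeR adjusted p = 0.418). Without control replicate 3, Mrtfb was called lower, at -0.23.

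Myocd, the cofactor of heart and smooth muscle, did not pass, at 162.4 ± 25.5 and 187.7 ± 3.59 CPM (log2 fold change 0.21, SE 0.10; edgeR adjusted p = 0.119). It was called higher without control replicate 1 (0.29; adjusted p = 0.0396), without control replicate 3 (0.09; adjusted p = 0.0461) and in DESeq2 (0.21; adjusted p = 0.0359). Elk1, an SRF partner of the ternary complex family, rose by 0.44 (SE 0.05), and Foxo4, a repressor of myocardin, by 0.40 (SE 0.05).

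Genes known to depend on SRF and actin were called higher in 18 of 30 cases and lower in 5, at a median log2 fold change of 0.25. Of all genes tested 28.5% were called in each direction. That list holds Acta2 itself and is not independent of the others. Srf and Fhl2 are also counted among SRF and its cofactors, and Vcl, Pdlim7, Cnn2, Tpm1, Myl9, Flna and Csrp1 among the contractile genes below, while Cap1, Coro1a and Wdr1 are also in the list of actin assembly. Tgfb1i1, the focal adhesion protein Hic-5, went from 41.4 ± 0.877 to 99.5 ± 1.78 CPM (SD, n = 3 each), and Pdlim7, a PDZ-LIM protein on actin bundles, from 44.7 ± 2.12 to 114.4 ± 4.21 CPM. Thbs1, which encodes thrombospondin, rose by 1.74 (SE 0.06). The members that fell, named after their values were seen, were Tuft1, Nuak2, Myl9, Fhl1 and Coro1a. Without control replicate 3 the number that fell was 8.

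Smooth muscle contractile genes beyond the 10 did not share a direction, since 13 of 36 rose and 12 fell, and the median was 0.07. Calls in both directions were common among all genes tested, at 28.5% each, so these counts are not particular to this list. Vcl, which encodes vinculin of the focal adhesion, rose from 899.4 ± 56.9 to 1319 ± 6.67 CPM (SD, n = 3 each). Synm, the intermediate filament protein synemin, fell from 184.1 ± 16.0 to 75.6 ± 1.26 CPM (log2 fold change -1.28, SE 0.06; edgeR adjusted p = 1.48e-08). Some central members also fell, named here after their values were seen. These were Myl9, the regulatory light chain of smooth muscle myosin (log2 fold change -0.36, SE 0.04), Mylk, its kinase (-0.24, SE 0.04), Tpm2, a tropomyosin (-0.25, SE 0.04) and Des, desmin (-0.45, SE 0.05). The rise of the 9 listed genes tested was therefore not shared by all genes of smooth muscle contraction.

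Of 50 genes of actin assembly and turnover, 24 were called lower and 15 higher, with a median of -0.12. Of all genes tested 28.5% were called in each direction, and the count called higher was near that share. The difference between these counts was not tested, and without Circ-INSR siRNA replicate 2 they were 17 and 15. Besides Lmod2, Limk2, a kinase that inactivates cofilin, fell from 162.9 ± 7.53 to 91.99 ± 3.80 CPM (SD, n = 3 each). The formin gene Fhod1 rose from 53.3 ± 2.58 to 98.7 ± 1.34 CPM, and Spire1, a filament nucleator, from 5.11 ± 0.384 to 9.92 ± 0.557 CPM. Of genes that fold or modify actin 13 of 21 rose and 4 fell, beside the same 28.5% in each direction, with a median of 0.18. Among subunits of the chaperonin TRiC, which folds newly made actin, Cct2 rose by 0.55 (SE 0.04), Cct8 by 0.31 (SE 0.04) and Cct6a by 0.31 (SE 0.04). The remaining subunits are named after their values were seen. Tcp1, Cct5 and Cct3 also rose, while Cct4 (-0.06, SE 0.05) and Cct7 (-0.07, SE 0.04) did not pass. Naa80, the enzyme that acetylates the N-terminus of actin, fell from 26.4 ± 0.584 to 10.7 ± 1.03 CPM (edgeR adjusted p = 4.80e-08). The number of fallen genes in that list was 2 without Circ-INSR siRNA replicate 1 or 2.

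Actin-related proteins share the fold of actin but serve in other complexes. Of 18 listed, which include Actr2 and Actr3 of the assembly list, 11 could be tested, of which 7 rose and 1 fell, with a median of 0.19. The share of all genes tested was 28.5% in each direction. Actr3 and Actr2, both core subunits of the Arp2/3 complex that starts filament branches, rose by 0.43 (SE 0.04) and 0.29 (SE 0.05). Its smaller subunits, which stand in the assembly list and are named after their values were seen, mostly did not rise. Arpc5, Arpc3, Arpc1a and Arpc1b fell by 0.51 (SE 0.06), 0.38 (SE 0.05), 0.29 (SE 0.04) and 0.19 (SE 0.05), Arpc4 rose by 0.17 (SE 0.05), and Arpc2 and Arpc5l did not pass. Actl6a, a subunit of chromatin remodelling complexes, rose by 0.54 (SE 0.04). Actr3b, a second form of the Arp3 subunit, fell by 0.66 (SE 0.07). Actbl2, an actin-like gene close to Actb, had a count of 0 in all 6 libraries.

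**Figure D5:**
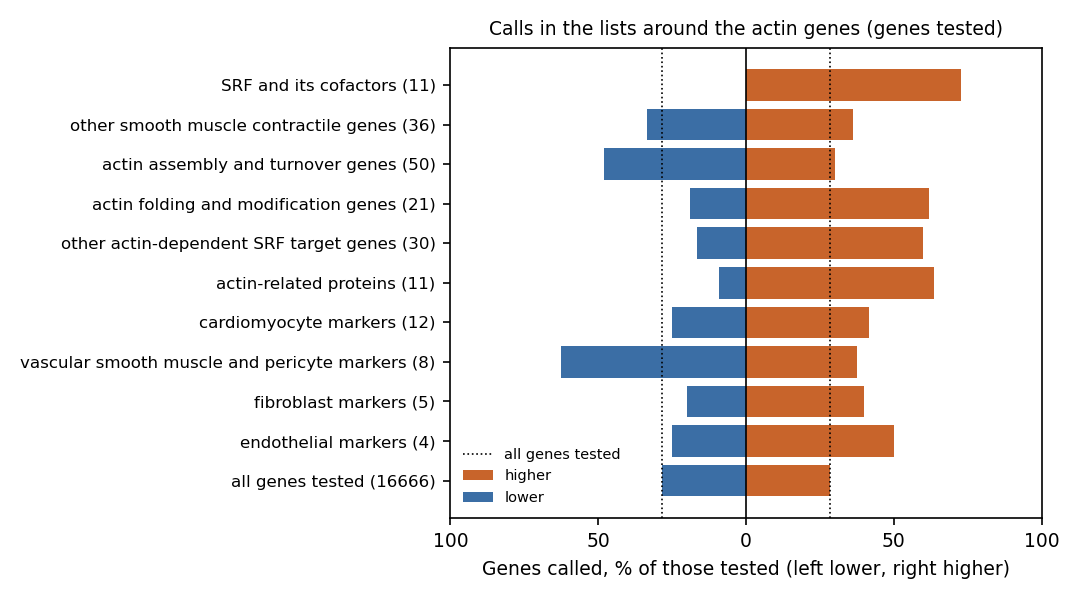
Percent of the genes tested in each list that were called lower (blue, left) or higher (orange, right), with the number tested in brackets and dotted lines at the 28.5% of all genes called in each direction. SRF and its cofactors had 8 of 11 higher, and vascular smooth muscle and pericyte markers had 5 of 8 lower.

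Markers of other cell types were read beside these results. Of 10 vascular smooth muscle and pericyte markers 8 could be tested, 5 fell and 3 rose, where 28.5% of all genes tested were called in each direction. Itga8 is also counted among the contractile genes above, and Pln among the cardiomyocyte markers below. The summed level of the list was 1125 to 1171 CPM in control and 929.4 to 950.2 CPM in treated libraries. Mcam was the largest part of it, at 601.7 ± 24.7 and 408.5 ± 2.29 CPM (SD, n = 3 each). Notch3 fell by 1.15 (SE 0.09), Mcam by 0.56 (SE 0.04), Itga8 by 0.94 (SE 0.11) and Cspg4 by 0.77 (SE 0.13), opposite in direction to Acta2 and Tagln. Those that rose, named after their values were seen, were Pdgfrb (0.50, SE 0.12), a receptor of mural cells, and Pln (0.31, SE 0.06) and Casq2 (0.18, SE 0.04), calcium-handling genes that cardiac muscle also expresses. The pericyte markers Rgs5, Kcnj8 and Abcc9 were at 0.431 ± 0.183, 0 and 0.0317 ± 0.0549 CPM in control libraries (SD, n = 3 each), and Rgs5 was the remaining marker that fell, to 0.0944 ± 0.0484 CPM.

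Fibroblast markers could be tested in 5 of 10 cases. Col1a1 fell by 0.50 (SE 0.06), Col3a1 rose by 0.87 (SE 0.08) and Col1a2 by 1.67 (SE 0.30), while Dcn, Lum and Thy1 were below 0.1 CPM in both groups and Tcf21 was at 0 in all libraries. The summed level of the list was 175.6 to 193.2 CPM in control and 135.6 to 153.7 CPM in treated libraries. Most of that sum was Col1a1, at 168.7 ± 9.64 and 119.5 ± 7.67 CPM (SD, n = 3 each). Col1a2 was low, at 0.313 ± 0.152 and 0.995 ± 0.0188 CPM. Endothelial markers summed to 44.3 to 47.9 CPM in control and 95.0 to 98.0 CPM in treated libraries, nearly all of it Kdr, Tek and Egfl7. Kdr rose by 1.57 (SE 0.05), Tek rose by 1.45 (SE 0.10) and Egfl7 fell by 0.45 (SE 0.08). The defining endothelial gene Cdh5 was near 0 and Emcn at 0.

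Cardiomyocyte markers rose in 5 of 12 cases and fell in 3, where 28.5% of all genes tested were called in each direction. Their summed level was 7601 to 8464 CPM in control and 7869 to 8017 CPM in treated libraries. Myh6, the alpha cardiac myosin heavy chain, rose by 0.50 (SE 0.05) and Myl4, an atrial light chain, by 0.86 (SE 0.05). Myl7, another atrial light chain, named after its value was seen, fell by 0.19 (SE 0.04). Tnnt2, cardiac troponin T, fell by 0.73 (SE 0.04) and Actn2, the Z-disc actinin, by 0.64 (SE 0.05). Tnni3, cardiac troponin I, rose by 0.21 (SE 0.05) and is named after its value was seen, so the thin filament genes in this list did not share a direction. Without control replicate 3, 5 of these markers were lower. The part of any of these markers in the values of the 10 genes was not tested.

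The genes closest in pattern to Acta2 and Actc1 were listed by the root mean square difference of centred log2 CPM over the 6 libraries, among 9831 genes whose log2 CPM averaged 3 or more. For Acta2 these were Plk1, Tmem189, Ints5, Ap3s2 and F11r, at 0.0236 to 0.0313. For Actc1 they were Csnk1d, Rfng, Cdk16, Tmed10 and Car14, at 0.0244 to 0.0321. None of the 10 listed genes was among them. With 2 groups of 3 libraries this measure mostly reflects the size of the fold change.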

How the data were processed

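The deposited files hold raw counts per Ensembl gene, 1 column per library, which the authors made without normalization. Per the submitters' processing notes the build was mm10 and the tools included STAR 2.5.0c and featureCounts 1.6.4. The gene annotation, how multiply matching reads were treated and whether strand was used were not given in the sources used here. In each library more genes had a count of 2 than of 1, as when both mates of a pair are counted. Symbols, positions and exonic lengths came from GENCODE M21 (36308 of 38087 IDs, 95.33%).

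The test was that of edgeR 4.0.16 under R 4.3.3 (filterByExpr with minimum count 10 and minimum total 15, TMM scaling, robust quasi-likelihood test, group as the only term, adjusted p under 0.05 over all 16666 genes). CPM are TMM-scaled. For the SE, the log2 fold change was divided by the root of the F statistic. The steps were tested on simulated data, where the share of calls on unchanged genes was somewhat above the threshold for adjusted p. Far fewer genes were changed in that simulation than were called in these data, so its share does not carry over to them. In the count files 3 counts were 0.0395 to 0.0496 CPM. Exact permutation tests used scipy 1.17.1. Shared words and motifs were searched in Python 3.11.15, and coding sequences aligned with Biopython 1.88.

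The 10 genes and the lists were chosen with earlier results of these data known. Named are the 10 genes, Srf, Myocd, Mrtfa, Mrtfb, and of each list up to 4 called genes with the smallest adjusted p, or the 2 most abundant where none was called. Any other gene was picked with its value known. The alternatives tried were other scalings, filters, tools (DESeq2 1.42.0, limma 3.58.1), halved or thinned counts, a replicate block, each library left out and, chosen after seeing the data, Actg1 with its copies added.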

Additional observations from a re-analysis of the deposited data

How the results depend on the processing

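All 9 listed genes tested stayed called higher under each of the 16 alternatives. Actg2 could be tested in 5 of them, for example with log2 fold changes of 1.97 with no filter on low counts (adjusted p = 0.0275), 1.38 without control replicate 2 (adjusted p = 0.0892) and 3.27 without control replicate 3 (adjusted p = 0.00434), so that 10 genes were called in 3 alternatives. The libraries with the same number are not shown to be paired: their deviations correlated at 0.0242, 0.0739 and 0.0356, although each library correlated best with its own number. With the replicate block 9 listed genes were called higher, and of all genes 4968 were higher and 4900 lower, against 4750 and 4745 without it. Myocd was called higher with that block (0.22; adjusted p = 0.0394), and no other call on a gene named by the rule changed with it. Myh11, with the fewest reads of the genes tested among the 10, ranged from 0.82 to 1.22 when libraries were left out. Leaving out each library in turn gave ranges for the number called lower of 0 to 1 among SRF and its cofactors, 2 to 4 among folding and modification genes, 5 to 8 among SRF targets, 3 to 5 among cardiomyocyte markers, 1 to 2 among fibroblast markers, and 17 to 26 among actin assembly genes. With at least 1 CPM in 3 libraries, 1 fibroblast marker was higher in place of 2, as fewer genes were tested. The cause of the other shifts was not tested. Actin shares kept their direction without division by length, with the Actg1 copies added and with each library left out. Among the 10 genes, low counts limited Actg2 and Myh11 most.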

Other observations

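Actb is widely used as a reference gene for normalising quantitative PCR, and here its log2 fold change was 0.54 (SE 0.04; edgeR adjusted p = 3.19e-07). Another 15 common reference genes, chosen after the values of the actins were seen, had log2 fold changes from -0.42 to 0.44 with a median of 0.11. Of these 8 were called higher and 4 lower, where 57.0% of all genes tested were called, 28.5% in each direction. Ppia, Pgk1 and Polr2a did not pass the test, at 0.04 (SE 0.05), 0.09 (SE 0.04) and -0.24 (SE 0.11). Gapdh stood at 1126 ± 27.2 CPM in control and 1216 ± 12.2 CPM in treated libraries (SD, n = 3 each; log2 fold change 0.11, SE 0.04; edgeR adjusted p = 0.0188). Hprt and B2m fell, both at a log2 fold change of -0.42 (SE 0.07). Eef1a1, an elongation factor gene, rose by 0.44 (SE 0.03). The log2 fold change of Actb lay above that of each of these 15 genes, though the differences between genes were not tested.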
